A study of Mus musculus with 7 samples.

Results

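Metalloproteinases of the extracellular space and their inhibitors were examined in primary mouse hepatocytes that lack WDR6. The genes were set by a rule on the symbol, and the choice was made with earlier results of these data known. The rule took names that begin with Mmp, Adam, Adamts or Timp (with a number after Mmp, Adam and Timp). It was met by 43 of the 14819 rows of the count table. They comprised 14 matrix metalloproteinases (MMPs), 12 membrane-anchored ADAM proteases (a disintegrin and metalloproteinase), 14 ADAMTS and ADAMTS-like genes (the secreted relatives with thrombospondin motifs) and 3 tissue inhibitors of metalloproteinases (TIMPs). RefSeq lists 85 protein-coding mouse genes with such names, and the other 42, among them Mmp7, Mmp8, Adamts13 and Timp4, were not analysed here. RNA-seq was performed on hepatocytes from WT mice (4 samples) and from mice with a whole-body knockout of Wdr6 (WDR6-WKO, labelled KO, 3 samples). The knockout was made by CRISPR deletion of exon 2 of Wdr6 and was therefore present in every cell of the animal. Livers of male mice were perfused with collagenase, and the cells were kept overnight in William's E medium with serum and received no treatment. The age of the donor mice was not given in the sources used here.

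MMPs are secreted or membrane-bound enzymes that cut collagens, laminins and other matrix proteins, and most are made as inactive pro-enzymes. ADAM proteases release the outer domains of membrane proteins such as growth factor precursors and Notch, and ADAMTS proteases trim proteoglycans and procollagens. TIMPs bind the active site of these enzymes, and in the liver the balance of MMPs and TIMPs governs how matrix is laid down and removed, with macrophages and stellate cells as well-known sources of both.

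The libraries held 17816913 to 23668940 counted reads. Wdr6 itself had 769 to 972 reads in the WT libraries and 40 to 62 in the WDR6-WKO libraries (log2 fold change -4.20, SE 0.11, adjusted p = 3.44e-12), in the direction of the labels. WDR6-WKO replicate 3 stood apart from the other 2 of its genotype: its counts differed from theirs with a chi-square of 14.4 and 16.2 per gene, against 3.84 to 8.34 for all other pairs within a genotype. Hepatocyte markers were present in all libraries, with 9 of 10 analysed and Alb at 7366 ± 730.4 CPM (counts scaled to a common library total with TMM factors; mean ± s.d., n = 4) in WT and 6479.9 ± 363 CPM (n = 3) in WDR6-WKO. Markers of other liver cells were present too. As RNA was taken from whole cultures, fewer cells of a type and less RNA per cell cannot be told apart.

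The strongest differences among these genes lay in a group of secreted MMPs. Mmp13, Mmp3 and Mmp10 were 3.04- to 3.54-fold higher in WDR6-WKO hepatocytes, Adam8 was 1.93-fold higher, and Mmp12, Adamts1, Adamts6, Timp1 and Timp2 rose by smaller factors of 1.25 to 1.60. Mmp14, Adam10, Adam12 and Adamts4 fell, each by a factor of at most 1.32. Of the 42 members tested, 9 (21.4%) were higher and 4 (9.52%) were lower at an adjusted p under 0.05 (quasi-likelihood test of edgeR, Benjamini-Hochberg adjusted over all 14779 genes tested), beside 6.65% and 6.18% of all genes (12.8% in either direction). The median log2 fold change of the 42 was 0.04, beside 0.01 for all genes. CPM ranges of the 2 genotypes were separate for 12 members with higher and 6 with lower values in WDR6-WKO, beside 11.8% and 11.7% of all genes (23.5% in either direction). With the thresholds the study used for differentially expressed genes (a log2 fold change of 0.35 or more in size and an unadjusted p under 0.05), 8 members passed as higher and 2, Adamts4 and Adam11, as lower, beside 6.42% and 3.94% of all genes. The thresholds were applied here to the edgeR values, whereas the study used DESeq2, so these are not the study's own calls. Without WDR6-WKO replicate 3, 11 members were higher and 5 lower, all 13 above among them, while the calls over all genes went from 983 and 914 to 2150 and 2083. Without WT replicate 4, 2 members were lower, as Adam10 and Adamts4 no longer passed. The exact two-sided permutation test of each gene's log2 CPM over the 35 possible assignments of libraries to genotypes gave 0.0286, the smallest p it can give, for each of the 13 members except Mmp3 and Mmp10, which gave 0.0571.

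**Figure D1:**
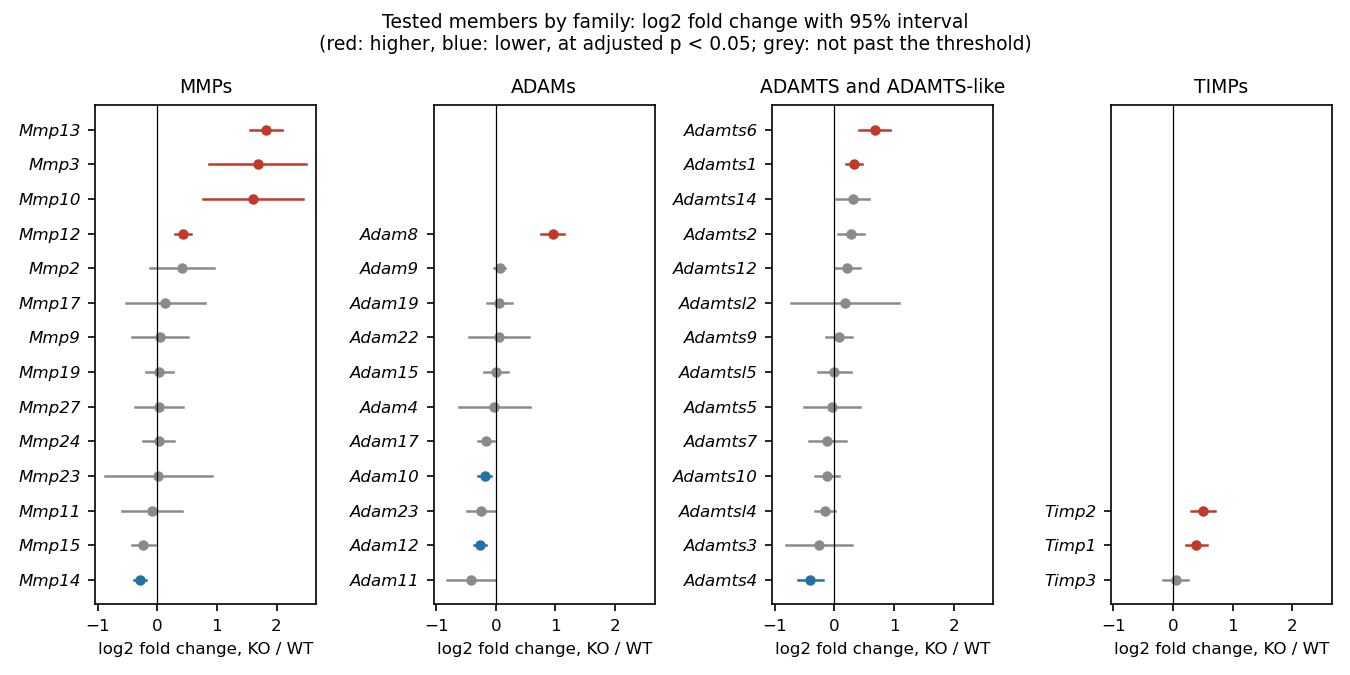
Log2 fold change of WDR6-WKO over WT (horizontal axis) for the 42 tested members, in 1 panel per family, with points for the estimates and lines for their 95% intervals; red and blue mark the 9 higher and 4 lower members at an adjusted p under 0.05, and grey the other 29. Mmp13, Mmp3, Mmp10 and Adam8 lie farthest to the right, and most grey intervals include 0.

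Levels of different genes were compared per kilobase of exon. Adam9 had the highest level of all members, with CPM per kb of 98.5 ± 2.50 in WT and 103 ± 2.30 in WDR6-WKO, and it did not pass the test (log2 fold change 0.06, 95% interval -0.03 to 0.16). Mmp14, Mmp12, Adam10 and Timp1 followed, with means over all 7 libraries of 55.6, 52.9, 48.99 and 46.6 CPM per kb. The order of Mmp14 and Mmp12 was not the same in both genotypes, since Mmp14 led in WT (60.2 against 46.02) and Mmp12 in WDR6-WKO (62.1 against 49.3). Mmp13 stood at place 19 of 43 and Mmp10 and Mmp3 at places 34 and 35, so the members with the largest fold changes were of low to middle level. Adam1a, which belongs to a testis-expressed pair of ADAM genes, was the lowest member and the only one that failed the filter on low counts, with 0.353 to 0.854 CPM in WT and 0.335 to 0.748 CPM in WDR6-WKO. All of the 50-base sequences of its longest transcript are shared with annotated neighbours such as Mapkapk5, so its count is uncertain.

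**Figure D2:**
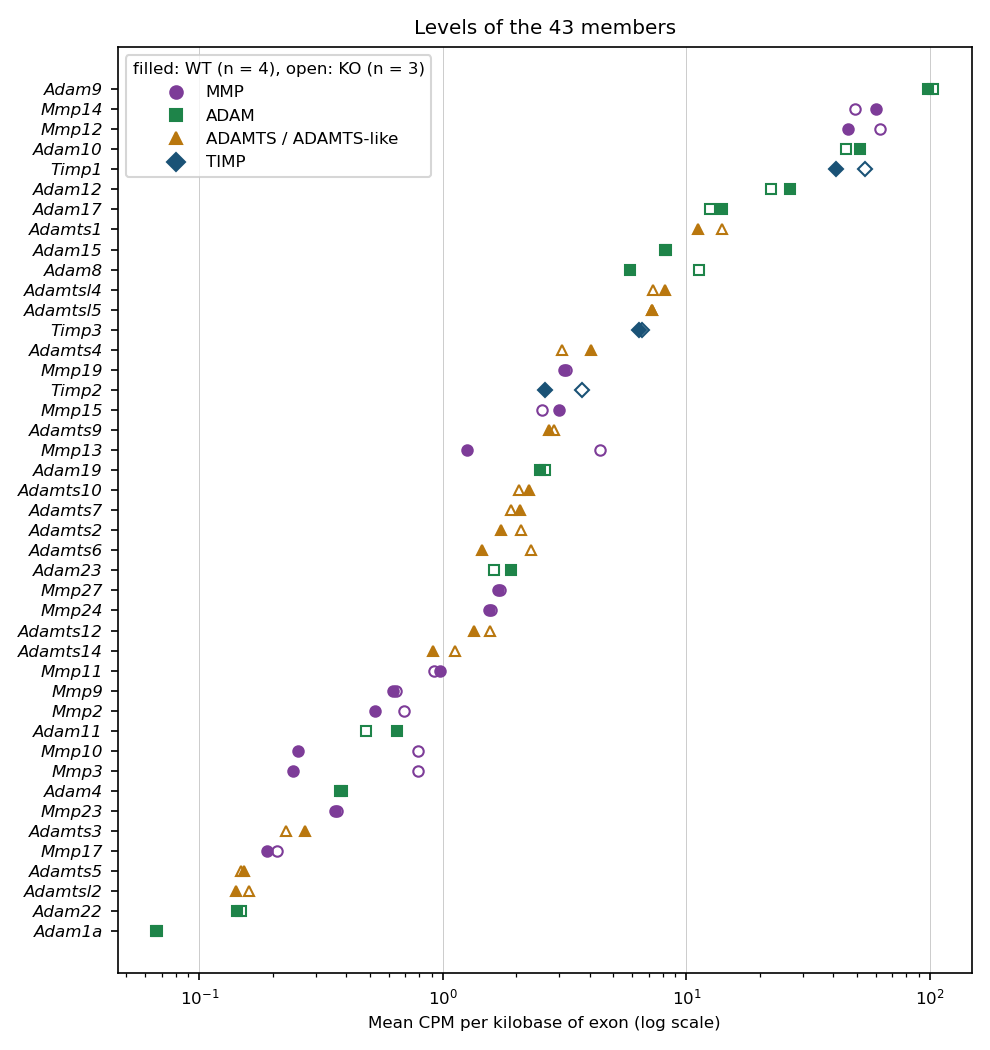
Mean level of each of the 43 members in CPM per kilobase of exon (horizontal log axis), with filled symbols for WT (n = 4), open symbols for WDR6-WKO (n = 3) and symbol shape for the family. Adam9, Mmp14, Mmp12, Adam10 and Timp1 head the list, and the distance between filled and open symbols is widest for Mmp13, Mmp3 and Mmp10.

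Among the collagenases, stromelysins and elastases, 4 of 5 tested members rose, beside 6.65% of all genes. Mmp13 (chr9:7272514-7283331, plus strand, GRCm38), the main interstitial collagenase of rodents, had 3.28, 3.35, 3.62 and 3.11 CPM in WT replicates 1 to 4 and 11.9, 10.6 and 13.01 CPM in WDR6-WKO replicates 1 to 3. Every WDR6-WKO library was above every WT library by a wide gap. The difference (log2 fold change 1.82, SE 0.13, adjusted p = 2.13e-07) was also the one with the smallest adjusted p of the 42 members. Mmp3 (chr9:7445822-7455975, plus strand), stromelysin-1, which cuts many matrix proteins and activates other pro-MMPs, was counted with 5, 4, 11 and 14 reads in WT and 25, 38 and 26 reads in WDR6-WKO (log2 fold change 1.68, SE 0.38, adjusted p = 0.00892). Its close relative Mmp10 (chr9:7502352-7510240, plus strand), stromelysin-2, was counted with 5, 14, 3 and 12 reads in WT and 25, 30 and 29 reads in WDR6-WKO (log2 fold change 1.61, SE 0.40, adjusted p = 0.0147). Neither gene overlapped between genotypes, but both rest on few reads, share 8.39% and 8.37% of their 50-base sequences with other genes, chiefly each other, and lost their call without WDR6-WKO replicate 2 (adjusted p = 0.0580 and 0.0552). Mmp12 (chr9:7344381-7369499, plus strand), the macrophage elastase, was far more abundant, with 184, 192, 179.5 and 178 CPM in WT and 231, 235 and 276 CPM in WDR6-WKO. All WDR6-WKO values were higher, with replicate 3 the highest (log2 fold change 0.43, SE 0.06, adjusted p = 0.000197). Its exons overlap those of Mmp1b on the opposite strand over 157 bases. Mmp11, stromelysin-3, which lies on another chromosome, overlapped between genotypes (log2 fold change -0.09, 95% interval -0.59 to 0.42).

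Of 15 Kupffer cell and macrophage markers, 4 were higher and 0 lower, beside 6.65% and 6.18% of all genes, and their summed level ranged from 929 to 1038 CPM in WT and 1080.2 to 1285 CPM in WDR6-WKO. Lyz2 (log2 fold change 0.64), Fcgr1 (0.75), C1qc (0.48) and C1qb (0.30) passed the test, whereas Clec4f, the defining Kupffer cell marker, had 117 ± 5.62 CPM in WT and 126 ± 10.4 CPM in WDR6-WKO (adjusted p = 0.311). Timd4, another Kupffer cell marker, had a value in the opposite direction, with 3.65 ± 0.523 CPM in WT and 2.59 ± 0.278 CPM in WDR6-WKO (log2 fold change -0.48, adjusted p = 0.0880). None of the 15 was at 0 in any library. Their part in the result was not tested.

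The 4 higher MMPs lie in 1 gene cluster on chromosome 9. RefSeq places 10 Mmp genes there within 427 kb, and 5 of them were tested. The fifth, Mmp27, had 2.47, 2.36, 3.46 and 3.41 CPM in WT and 3.16, 3.02 and 2.74 CPM in WDR6-WKO and overlapped between genotypes (log2 fold change 0.03, 95% interval -0.37 to 0.43). Another 9 protein-coding genes that lie wholly or partly within 1 Mb of the cluster were tested. Of these, 0 were higher and 1 was lower, beside 6.65% and 6.18% of all genes. The lower one was Yap1 (log2 fold change -0.20, adjusted p = 0.0102), and the log2 fold changes of the 9 ran from -0.58 to 0.16. Wdr6 is on the same chromosome, 101 Mb away. This neighbourhood was compared after the values of the MMPs had been seen.

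**Figure D3:**
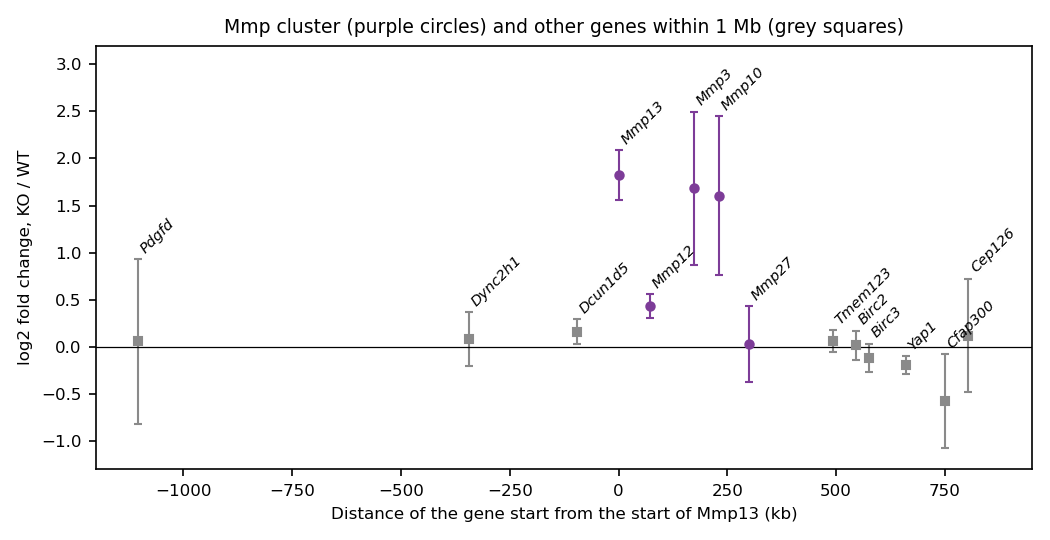
Log2 fold change of WDR6-WKO over WT with 95% intervals (vertical axis) against the distance of each gene's start from that of Mmp13 in kb (horizontal axis), for the 5 tested MMPs of the cluster (purple circles) and the 9 other tested genes nearby (grey squares). Mmp13, Mmp3, Mmp10 and Mmp12 lie above 0, whereas Mmp27 and the other genes scatter around it between -0.58 and 0.16.

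The promoters of the cluster's 5 tested genes are shown because 4 of these genes rose and 1, Mmp27, did not pass the test. MMP promoters are textbook targets of AP-1, the dimer of FOS and JUN proteins, whose palindromic site reads TGANTCA on either strand. The 250 bases before each RefSeq start (GRCm38.p6, plus strand, 5′ to 3′) follow, with TGANTCA in capitals, for Mmp13 (chr9:7272264-7272513), Mmp12 (chr9:7347124-7347373, before the downstream one of its 2 starts and within an intron of the longer transcript), Mmp3 (chr9:7445572-7445821), Mmp10 (chr9:7502092-7502341) and Mmp27 (chr9:7571146-7571395).
Mmp13: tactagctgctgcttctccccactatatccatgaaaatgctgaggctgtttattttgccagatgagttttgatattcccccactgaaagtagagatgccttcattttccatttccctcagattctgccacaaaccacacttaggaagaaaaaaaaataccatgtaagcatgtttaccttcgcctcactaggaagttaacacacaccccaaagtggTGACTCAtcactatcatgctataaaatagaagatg
Mmp12: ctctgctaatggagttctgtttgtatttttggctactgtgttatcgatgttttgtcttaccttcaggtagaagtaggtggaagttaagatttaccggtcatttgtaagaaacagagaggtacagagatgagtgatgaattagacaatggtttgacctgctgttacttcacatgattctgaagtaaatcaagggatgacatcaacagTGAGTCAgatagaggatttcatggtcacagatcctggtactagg
Mmp3: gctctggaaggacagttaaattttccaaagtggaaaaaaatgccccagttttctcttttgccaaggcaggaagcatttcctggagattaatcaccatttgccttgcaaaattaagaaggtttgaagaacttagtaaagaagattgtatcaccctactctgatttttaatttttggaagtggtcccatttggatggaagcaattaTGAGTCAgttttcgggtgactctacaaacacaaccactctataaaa
Mmp10: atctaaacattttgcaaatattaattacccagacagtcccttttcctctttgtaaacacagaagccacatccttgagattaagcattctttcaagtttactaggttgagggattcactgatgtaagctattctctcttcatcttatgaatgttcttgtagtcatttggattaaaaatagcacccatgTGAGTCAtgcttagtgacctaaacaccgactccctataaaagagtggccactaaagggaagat
Mmp27: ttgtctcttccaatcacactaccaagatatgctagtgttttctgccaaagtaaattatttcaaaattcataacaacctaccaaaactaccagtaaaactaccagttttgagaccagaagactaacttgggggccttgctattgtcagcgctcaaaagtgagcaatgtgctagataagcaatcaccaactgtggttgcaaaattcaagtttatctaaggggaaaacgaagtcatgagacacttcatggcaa

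Counted from the start, with the base before it as -1, the match lay at -35 to -29 in Mmp13, -44 to -38 in Mmp12, -46 to -40 in Mmp3 and -63 to -57 in Mmp10. Mmp27 held no match, and neither did the window before the upstream start of Mmp12 (chr9:7344147-7344396), which is not printed. Mmp12 is thus counted as holding a match through its downstream start alone. The table holds 34 windows of 30 members, as some genes have several starts, and 5 windows (14.7%) held TGANTCA: 1 in each of these 4 genes and 1 in Adam19, a sheddase that did not pass the test (log2 fold change 0.06). The share over all 32817 windows of this length was 6.75%. Counted by gene, with a match in any window, it was found in 4 of the 8 higher and 0 of the 2 lower members with a window, beside 7.82% of the 26994 genes with a window. The 4 are related neighbours of 1 cluster, examined after their values were seen, so they are not independent genes and this share is a description. Other motifs were searched in the same windows on both strands. The ETS core AGGAAG was in 10 of the members' windows and 29.5% of all windows, TATAAA in 5 and 12.4%, the CEBP-ATF element TGATGNAA in 1 and 3.45%, and the interferon-stimulated response element in 1 and 2.97%. No match of TGANTCA overlapped a match of the other motifs. TATAAA was in Mmp13, Mmp3, Mmp10, Adamts1 and Adamtsl2. By gene, this motif was in 4 of the 8 higher and 0 of the 2 lower members, beside 14.3% of genes. These counts equal those of the AP-1 site, but the genes were not all the same. Mmp13, Mmp3 and Mmp10 held both motifs, Mmp12 the AP-1 site alone and Adamts1 TATAAA alone. Whether either motif bears on the differences was not tested. The ETS core, by gene, was in 4 of the 8 higher and both lower members, beside 32.3% of genes. A match describes letters in the reference sequence and was not measured as a binding site.

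Of the remaining MMPs, 1 passed the test, Mmp14, beside 12.8% of all genes in either direction. Mmp14 (chr14:54431612-54445364, plus strand), the membrane-anchored MT1-MMP that cuts collagen at the cell surface and activates pro-MMP2, had 257, 248, 247 and 256 CPM in WT and 217, 208 and 194 CPM in WDR6-WKO. It was the most abundant MMP per kilobase in WT, its ranges did not overlap, and it fell by a factor of 1.22 (log2 fold change -0.29, SE 0.05, adjusted p = 0.00118). The other membrane-type MMPs tested, Mmp15, Mmp17 and Mmp24, did not (log2 fold changes -0.23, 0.14 and 0.02). Mmp15 came nearest, with 15.4 ± 0.501 CPM in WT and 13.1 ± 0.783 CPM in WDR6-WKO, separate ranges and an adjusted p of 0.0984. The gelatinases Mmp2 and Mmp9, which digest denatured collagen, did not pass either (log2 fold change 0.41, 95% interval -0.12 to 0.95, and 0.04, -0.43 to 0.51). Mmp2 ranged from 1.28 to 2.84 CPM among the WDR6-WKO libraries, with replicate 3 lowest, and was called higher without that library. Mmp19 and Mmp23 had log2 fold changes of 0.03 and 0.02.

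**Figure D4:**
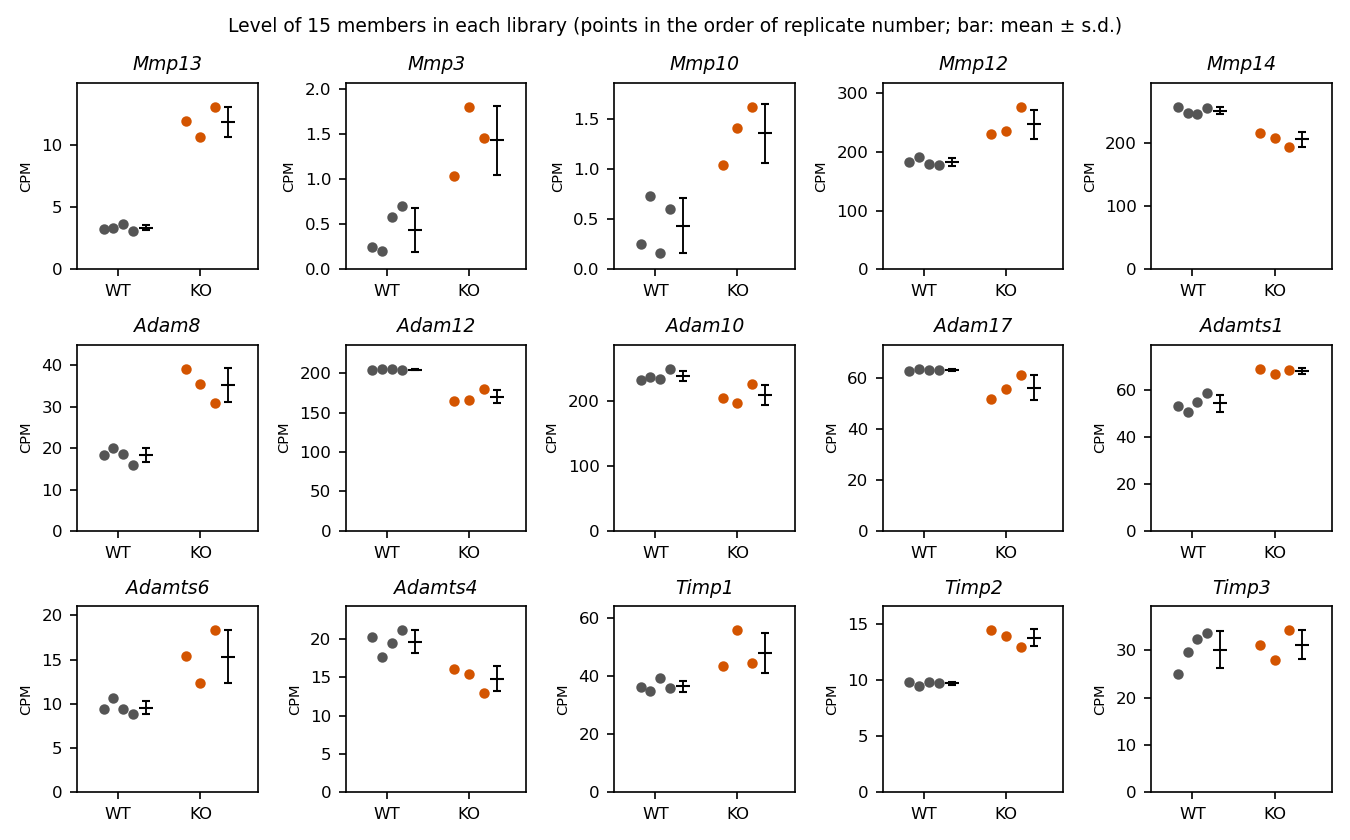
CPM (vertical axis, from 0) of 15 members in each library, with grey points for the 4 WT and orange points for the 3 WDR6-WKO libraries in the order of their replicate numbers and bars for mean ± s.d.; shown are the 13 called members, Adam17 and Timp3. The WDR6-WKO points of Mmp13 (10.6 to 13.01 CPM) lie above its WT points (3.11 to 3.62 CPM), and WDR6-WKO replicate 3 lies nearest to WT for Adam8, Adam10, Adam12 and Adam17.

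Of the 11 ADAM genes tested, 1 (9.09%) was higher and 2 (18.2%) were lower, beside 6.65% and 6.18% of all genes. The share of higher genes was near that of all genes, and the share of lower genes rests on 2 members. Adam8 (chr7:139978932-139992562, minus strand), a sheddase best known from leukocytes, had 365, 382, 350 and 319 reads in WT and 942, 753 and 554 reads in WDR6-WKO, or 18.3 ± 1.66 and 35.2 ± 4.11 CPM. The lowest WDR6-WKO library was still above the highest WT library (log2 fold change 0.95, SE 0.09, adjusted p = 6.05e-06). On the opposite strand, its exons overlap 46 bases of Gm16201, and those of Adam17 overlap 311 bases of Iah1. Adam12 (chr7:133883199-134232146, minus strand), which cleaves insulin-like growth factor binding proteins, had 204, 205, 205 and 204 CPM in WT and 165, 166 and 180.0 CPM in WDR6-WKO. All WDR6-WKO libraries were lower than the narrow WT range (log2 fold change -0.26, SE 0.05, adjusted p = 0.00167). In the same sense Adam10 (chr9:70678997-70780229, plus strand), the constitutive sheddase of Notch and E-cadherin, had 231, 236, 234 and 249 CPM in WT and 204, 196 and 225 CPM in WDR6-WKO (log2 fold change -0.19, SE 0.05, adjusted p = 0.0305). This call was the weakest of the 13: with the replicate number as a block the log2 fold change was -0.17 with an adjusted p of 0.0642, and leaving out any 1 of WT replicates 1 to 4 or WDR6-WKO replicates 1 and 2 gave adjusted p-values of 0.0522 to 0.145. Adam17 (chr12:21323509-21373632, minus strand), the sheddase of TNF and of EGF receptor ligands also called TACE, had 62.6, 63.6, 63.2 and 63.1 CPM in WT and 51.7, 55.5 and 61.4 CPM in WDR6-WKO. All 3 WDR6-WKO values were lower but spread towards WT, and the gene did not pass the test (log2 fold change -0.17, SE 0.06, adjusted p = 0.0896). Without WDR6-WKO replicate 3 it did (log2 fold change -0.24, adjusted p = 0.00150). Adam9, Adam11, Adam15, Adam19 and Adam23, and the low-level Adam4 and Adam22, did not pass, with log2 fold changes between -0.42 (Adam11) and 0.06 (Adam9).

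Genes that bring ADAM10 and ADAM17 to the cell surface, or whose products they release, were examined from lists written by hand. Beside 6.65% higher and 6.18% lower over all genes, 0 of 8 trafficking partners were higher and 2 were lower. These were Frmd8, which stabilises the iRhom-ADAM17 complex (188 ± 6.20 CPM in WT, 161 ± 12.7 CPM in WDR6-WKO, log2 fold change -0.22, adjusted p = 0.0170), and Tspan33, a tetraspanin that guides ADAM10 (log2 fold change -0.41, adjusted p = 0.0420). The iRhom genes Rhbdf1 and Rhbdf2 did not pass (adjusted p = 0.343 and 0.925). Of 28 transcripts for shed proteins, 8 were higher and 5 lower, beside the same shares of all genes. Their median log2 fold change was 0.04, beside 0.01 for all genes. Areg, an EGF receptor ligand released by ADAM17, rose most, from 14.1 ± 0.932 CPM in WT to 36.4 ± 4.15 CPM in WDR6-WKO (log2 fold change 1.37, adjusted p = 1.28e-07). Hbegf, another such ligand, and Cdh1, E-cadherin, rose as well (log2 fold changes 0.45 and 0.34, adjusted p = 0.000428 and 0.000197). Notch1, a Notch receptor, Tgfa, a further EGF receptor ligand, and the adhesion molecule Vcam1 fell (log2 fold changes -0.44, -0.35 and -0.26, adjusted p = 8.70e-05, 0.000327 and 0.00232). The EGF receptor ligands thus moved in both directions, since Ereg and Btc, named after their values were seen, rose as well (log2 fold changes 0.38 and 0.42, adjusted p = 0.00593 and 0.00155).

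Of the 14 ADAMTS and ADAMTS-like genes, 2 (14.3%) were higher and 1 (7.14%) was lower, beside 6.65% and 6.18% of all genes. Adamts1 (chr16:85793827-85803113, minus strand), which cleaves versican and aggrecan, was the most abundant of them per kilobase, and it had 52.99, 50.5, 54.8 and 58.7 CPM in WT and 68.98, 66.7 and 68.5 CPM in WDR6-WKO. The ranges were separate, and the WDR6-WKO libraries lay close together (log2 fold change 0.33, SE 0.06, adjusted p = 0.00216). Adamts6 (chr13:104287835-104496695, plus strand), a close relative of Adamts10, had 9.38, 10.7, 9.41 and 8.89 CPM in WT and 15.4, 12.4 and 18.3 CPM in WDR6-WKO, with replicate 3 highest (log2 fold change 0.68, SE 0.12, adjusted p = 0.00204). Adamts4 (chr1:171250421-171260637, plus strand), also known as aggrecanase-1, had 20.2, 17.6, 19.4 and 21.1 CPM in WT and 16.04, 15.4 and 12.96 CPM in WDR6-WKO (log2 fold change -0.40, SE 0.10, adjusted p = 0.0128). Its call ended without WT replicate 4 (adjusted p = 0.0510). Thus the proteoglycan-cleaving members moved in both directions, and their relatives Adamts5 and Adamts9 did not pass (log2 fold change -0.04 and 0.07). The procollagen N-propeptidases Adamts2, Adamts3 and Adamts14 did not pass either (adjusted p = 0.0806, 0.569 and 0.132), although Adamts2 was called higher without WT replicate 3 and without WDR6-WKO replicate 3. Adamtsl4, an ADAMTS-like protein of microfibrils that has no protease domain, was second in level in this family, and its WDR6-WKO values of 32.1, 30.1 and 26.2 CPM overlapped the WT range of 31.7 to 35.2 CPM (adjusted p = 0.215). Adamts7, Adamts10, Adamts12, Adamtsl2 and Adamtsl5 had log2 fold changes from -0.13 to 0.21 and did not pass.

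Of the 3 inhibitors, 2 were higher and 0 lower, beside 6.65% and 6.18% of all genes. Timp1 (chrX:20870166-20874735, plus strand), the inducible secreted inhibitor, had 36.2, 34.9, 39.2 and 35.7 CPM in WT and 43.6, 55.8 and 44.4 CPM in WDR6-WKO. Replicate 2 was the highest, and all WDR6-WKO values exceeded the WT values (log2 fold change 0.39, SE 0.08, adjusted p = 0.00576). Timp2 (chr11:118301069-118355740, minus strand), which both inhibits MMPs and takes part in the activation of pro-MMP2 by MMP14, had 9.83, 9.48, 9.84 and 9.74 CPM in WT and 14.5, 13.9 and 13.01 CPM in WDR6-WKO (log2 fold change 0.51, SE 0.09, adjusted p = 0.00192). Its WT values lay close together, below every WDR6-WKO value. Timp3 (chr10:86300372-86349506, plus strand), the matrix-bound inhibitor that also blocks ADAM17 and ADAMTS proteases, had 25.01, 29.5, 32.3 and 33.6 CPM in WT and 31.1, 28.02 and 34.2 CPM in WDR6-WKO, and its ranges overlapped (log2 fold change 0.04, 95% interval -0.17 to 0.25). Its exons overlap those of Syn3 on the opposite strand over 1733 bases, so that reads of the pair cannot be separated without strand. Of 14 stellate cell and fibroblast markers, 2 were higher (Acta2 and Dcn) and 1 lower (Rgs5), beside 6.65% and 6.18% of all genes. They summed to 699 to 763 CPM in WT and 749 to 816 CPM in WDR6-WKO, with Lrat at 20.9 ± 3.36 and 18.4 ± 1.03 CPM. Their part in the result was not tested.

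Levels were also summed by family. TIMP transcripts added up to 48.7, 48.1, 53.7 and 50.01 CPM per kb in the WT libraries and 59.6, 72.5 and 60.7 in the WDR6-WKO libraries. Most of this sum was Timp1, with 41.1 ± 2.12 CPM per kb in WT and 53.96 ± 7.66 in WDR6-WKO. MMP transcripts added up to 121, 121, 118 and 120.2 CPM per kb in WT and 127, 127 and 134 in WDR6-WKO. Both sums were higher in all WDR6-WKO libraries. The ratio of the TIMP sum to the MMP sum was 0.418 ± 0.0248 in WT and 0.498 ± 0.0635 in WDR6-WKO, and each WDR6-WKO library was above each WT library, replicate 3 by the narrowest margin (0.455 against 0.453). Within the MMP sum, the lower level of Mmp14 offset part of the gain: without it the sum was 59.8 ± 1.06 CPM per kb in WT and 80.00 ± 6.29 in WDR6-WKO. Mmp3, Mmp10 and Mmp13 together made up 1.75 ± 0.166 CPM per kb in WT and 6.01 ± 0.528 in WDR6-WKO, so that most of the difference came from Mmp12. The ADAM sum was 211 ± 3.95 and 208 ± 5.10 CPM per kb, and the ADAMTS sum 43.6 ± 0.922 and 45.9 ± 1.90. These sums are descriptions of RNA, carry no test, and say nothing of protein or enzyme activity.

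Other genes that control the proteases were taken from lists. Among 9 activators of pro-proteases, 2 were higher and 1 lower, beside 6.65% and 6.18% of all genes. Plau (urokinase) and its receptor Plaur rose, from 25.2 ± 0.185 to 34.3 ± 2.10 CPM (log2 fold change 0.44, adjusted p = 0.000514) and from 95.6 ± 4.60 to 137 ± 22.7 CPM (log2 fold change 0.52, adjusted p = 0.00318). Plat, the tissue-type plasminogen activator, fell (log2 fold change -0.17, adjusted p = 0.0313), and Furin, which removes the pro-domain of MMP14 and many ADAMs, did not pass (adjusted p = 0.197). Among 5 other protease inhibitors, 0 were higher and 1 lower, beside the same shares of all genes. The lower one was Serpinf2, the plasmin inhibitor made by hepatocytes, which had 380.0 ± 18.2 CPM in WT and 234 ± 12.1 CPM in WDR6-WKO (log2 fold change -0.70, adjusted p = 5.31e-07). Of 9 hepatocyte markers, 5 were lower and 0 higher, beside 6.18% and 6.65% of all genes. Their median log2 fold change was -0.43, and their summed level ranged from 10522 to 12505 CPM in WT and 9301 to 10007 CPM in WDR6-WKO. Their part in the result was not tested.

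Of 11 AP-1 and ETS factors known at MMP promoters, 4 were higher and 0 lower, beside 6.65% and 6.18% of all genes. Their median log2 fold change was 0.17, beside 0.01 for all genes. Fosl1, the AP-1 subunit FRA-1, rose from 78.04 ± 5.84 to 117 ± 9.39 CPM (log2 fold change 0.59, adjusted p = 3.12e-05). Fosb and Jun, 2 further AP-1 subunits, and the ETS factor Etv5 rose as well (log2 fold changes 0.70, 0.30 and 0.26, adjusted p = 0.00608, 0.0191 and 0.0288). Fos itself had 13.6 ± 1.27 CPM in WT and 11.2 ± 1.57 CPM in WDR6-WKO and did not pass (adjusted p = 0.112). Of 16 matrix proteins that these enzymes cut, 4 were higher and 1 lower, beside 6.65% and 6.18% of all genes. The basement membrane collagens Col4a1 and Col4a2 (log2 fold changes 0.25 and 0.22), the proteoglycan Dcn (0.28) and Ltbp1, which anchors latent TGF-β in the matrix (0.33), rose with adjusted p-values of 0.0282 to 0.0465. Fibronectin (Fn1), an abundant product of hepatocytes, fell from 4707 ± 197 to 3457 ± 251 CPM (log2 fold change -0.45, adjusted p = 5.59e-05). The fibrillar collagens Col1a1, Col1a2 and Col3a1 did not pass.

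**Figure D5:**
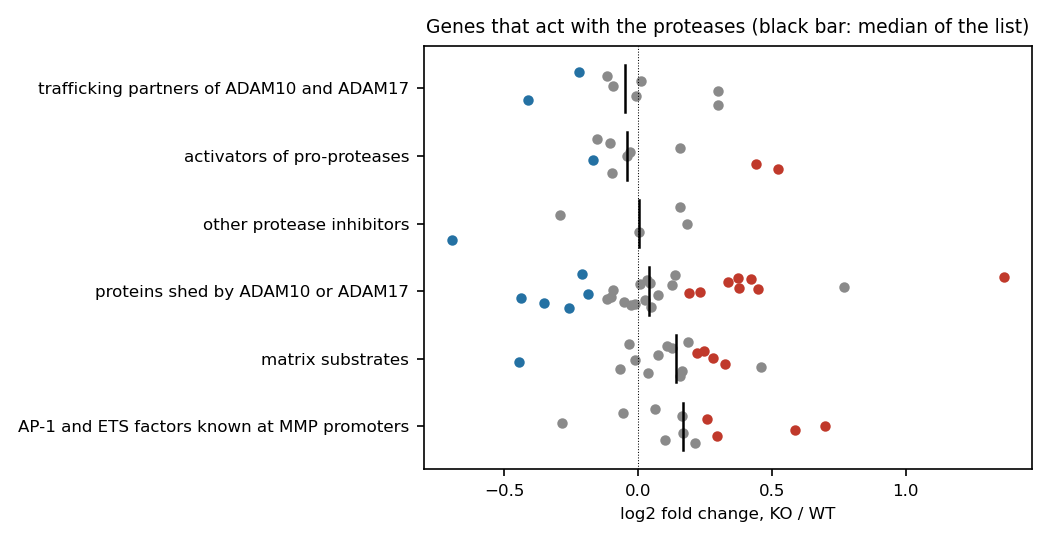
Log2 fold change of WDR6-WKO over WT (horizontal axis) for the genes of 6 lists that act with the proteases (1 row per list), with red for higher, blue for lower and grey for genes not past an adjusted p of 0.05, and black bars for list medians. Areg lies farthest to the right and Serpinf2 farthest to the left, and medians lie between -0.05 and 0.17.

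Markers of the remaining cell types were quantified as well. Of 15 sinusoidal endothelial markers, 0 were higher and 1 lower (Tek), beside 6.65% and 6.18% of all genes. They summed to 456 to 515 CPM in WT and 434 to 505 CPM in WDR6-WKO. Of 6 cholangiocyte markers, 2 were higher (Sox9 and Spp1) and 0 lower, beside the same shares of all genes. The 6 summed to 3068 to 3361 CPM in WT and 3714 to 4307 CPM in WDR6-WKO, most of it Spp1, which other liver cells also express. Of 11 neutrophil markers, 1 was analysed, Csf3r, with 1.77 ± 0.407 CPM in WT and 1.63 ± 0.315 CPM in WDR6-WKO (adjusted p = 0.800). None of the analysed markers was at 0 in any library.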

How the data were processed

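RNA from 4 WT and 3 WDR6-WKO samples of primary hepatocytes was sequenced on an Illumina HiSeq, and the authors aligned the reads to mm10 with Bowtie2 2.2.3 and deposited raw read counts per gene symbol. The counting tool, its annotation and its strand setting are not given in the sources used here. The 14819 rows had totals of at least 50 reads, and 21 rows held spreadsheet dates, were tested and were not named. Libraries held 17816913 to 23668940 reads, so genes with few reads, such as Mmp3 and Mmp10, carry counting error beside the spread between samples. The series calls the samples independent experiments and does not say how many mice they came from, so p-values measure the spread between these samples.

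From the deposited counts, WDR6-WKO was tested against WT with edgeR 4.0.16 (TMM scaling, filterByExpr, robust quasi-likelihood test, R 4.3.3) over 14779 genes, with Benjamini-Hochberg adjustment and a threshold of 0.05. SEs were derived from the F statistic. CPM values use the TMM factors, and levels per kb were divided by the merged exon length of GENCODE M21. Steps were tested on simulated data. Both genotypes carry replicate numbers, and deviations of samples with the same number from their group means had correlations of 0.327, 0.193 and 0.266 over well-expressed genes (0.404 for WT 1 and WDR6-WKO 2, which do not share one). No label says that a number marks a shared day.

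The members and lists were chosen with earlier results of these data known. Named by rule were the Timp genes, Adam10, Adam17, every called member, the 2 most abundant members per protease family, every member that failed the filter, and in the lists each called gene or, where over 6 were called, the 3 higher and 3 lower with the smallest p. Other members were named, after their values had been seen, to account for each. Promoters are RefSeq windows of 250 bases. Alternatives were limma-voom (limma 3.58.1), DESeq2 1.42.0, its size factors in edgeR, no TMM factors, all rows unfiltered, a minimum of 10 counts per library, the replicate block, each library left out, and the thresholds of the study or 0.01.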

Additional observations from a re-analysis of the deposited data

Results flagged for a closer look

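In 3 of the 43 sets of WT values, 1 library lay far from the other 3 by Dixon's ratio, the gap to its nearest neighbour divided by the range, which exceeded its 95% critical value. Chance gives this in about 1 in 20 sets. Adam4 was highest in WT replicate 1, with 1.21 CPM and a ratio of 0.853. Adam1a was highest in WT replicate 4, with 0.854 CPM and a ratio of 0.868. Adamts5 was lowest in WT replicate 3, with 1.38 CPM and a ratio of 0.885. All 3 are genes of low level, and none was called.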

How the results depend on the processing

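The number of higher members was 9 in the reported fit, 8 under the study's thresholds or an adjusted p under 0.01, and 7 with at least 10 counts in every library, where Mmp3 and Mmp10 were not tested. Leaving out 1 library gave 7 to 11 higher and 2 to 5 lower members. The number of lower members was 4, and it was 2 under the study's thresholds (losing Adam10, Adam12 and Mmp14 and gaining Adam11) and 2 at an adjusted p under 0.01 (losing Adam10 and Adamts4). It was 3 with library totals alone, where Adam10 was lost. With the replicate number as a block the counts were 9 higher and 3 lower, and the block changed no call of a member other than that of Adam10. No WDR6-WKO sample carries the number 4, so WT replicate 4 adds nothing to the genotype difference in the block fit. Of 236 values of the named members other than Adam1a, which has no value in the reported fit, under the alternatives, 222 kept their direction and their side of the threshold, 11 kept their direction but lost the call, 1 gained it (Adam17), and 2 turned, both for Timp3, whose log2 fold change was -0.036 without WT replicate 1 and -0.027 without WDR6-WKO replicate 3 and ran from -0.036 to 0.11 over the libraries left out. The log2 fold change of Wdr6 ranged from -4.27 to -4.15. Calls on Mmp3 and Mmp10 are limited by depth, as no WT library held more than 14 reads of either.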
